A study of Homo sapiens with 6 samples.

Results

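The 6 chemokine genes described here were CCL2, CCL5, CCL7, CCL8 and CCL20, of the CC family, and CX3CL1, of the CX3C family. They were chosen by gene symbol from the 58735 genes of the deposited expression table, and all 6 were found. Expression was measured by RNA-seq of poly(A) RNA in U251, an established human glioblastoma cell line, in 2 groups of 3 libraries each, which were labelled as independent biological replicates. Cells of the NC group received sterile deionized water, and cells of the TNF-α group received recombinant human tumor necrosis factor-α, an inflammatory cytokine, at 10 ng/mL for 24 h. Every library came from this same line, a single dose of TNF-α and a single time were used, and no transgene or knockdown was part of this comparison.

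Chemokines are small proteins that draw leukocytes along a gradient through receptors coupled to G proteins. In CC chemokines the leading cysteines of the chain are adjacent, whereas in the CX3C chemokine they are separated by other residues. Many of these genes are silent or weakly transcribed in resting cells and are switched on by inflammatory cytokines, largely through the transcription factors NF-kB and AP-1. In glioma, CCL2 is known as an attractant of monocytes and microglia, and CX3CL1 as the ligand of a receptor carried by microglia.

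Of these genes CCL2 rose past the test. Its mean level went from 2.05 ± 0.0964 FPKM in control cells to 126 ± 38.3 FPKM in TNF-α-treated cells (SD, n = 3 each), a 61.5-fold ratio of means. CCL5, CX3CL1 and CCL20 had higher values in all TNF-α libraries than in all NC libraries, with ratios of means of 2.46, 1.88 and 2.92. Of all genes tested 14.8% were higher without overlap in this way, and 8.32% in a fit with no filter on low values. CCL5 and CX3CL1 did not pass the test across all genes. CCL20 was too low to enter that test and did not pass in the fit with no filter. CCL7 was at 0 reads in control cells and at 14 reads over the 3 TNF-α libraries, and CCL8 was at 0 reads in all 6 libraries. FPKM are the authors' values, fragments divided by the gene length and by a scaled library size. Fold changes on the log2 scale are of log2(FPKM + 1), which understates the change of low genes.

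The libraries held from 31992167 to 37897044 reads in genes. Adjusted p-values are from limma with the Benjamini-Hochberg method over the 12136 genes with at least 1 FPKM in at least 3 libraries, and 123 of these genes (1.01%) passed the threshold of 0.05, among them 87 (0.717%) that were higher in the TNF-α group. TNF-α replicates 2 and 3 stood apart from the other 4 libraries. Genes over 8 kb in length took 16.6% and 17.9% of their reads, against 28.8% to 29.1% elsewhere, and the 5th to the 95th percentile of log2 ratios to the NC mean ran from -1.34 to 1.64 and from -1.22 to 1.36, against -0.37 to 0.42 in TNF-α replicate 1. The chemokine genes and the pathway counts that moved are therefore also given with libraries left out.

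Of the 6 genes, 3 had an entry in the RefSeq promoter table used here (GRCh38.p14), which were CCL7, CCL8 and CCL20. CCL2, CCL5 and CX3CL1 had none. The 250 bases before the RefSeq start are shown because CCL7 and CCL8 lie in the same cluster as CCL2 yet had few or no reads, while CCL20 was read in every library. The CCL7 window ends just before the gene as counted here. The CCL8 and CCL20 windows lie inside the counted genes, which start at 34319036 and 227805739, so they are not upstream of all counted exons. Capitals mark the TATA box (TATAAA), a loose AP-1 pattern (TGANTCA, where N is any base) and a match to the NF-kB decamer consensus. Each was searched on both strands.
CCL7, chr17:34269971-34270220, plus strand: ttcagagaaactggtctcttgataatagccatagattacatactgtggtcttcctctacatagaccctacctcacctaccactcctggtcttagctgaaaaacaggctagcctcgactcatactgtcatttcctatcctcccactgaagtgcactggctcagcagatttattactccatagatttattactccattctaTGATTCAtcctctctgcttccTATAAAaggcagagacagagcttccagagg
CCL8, chr17:34319185-34319434, plus strand: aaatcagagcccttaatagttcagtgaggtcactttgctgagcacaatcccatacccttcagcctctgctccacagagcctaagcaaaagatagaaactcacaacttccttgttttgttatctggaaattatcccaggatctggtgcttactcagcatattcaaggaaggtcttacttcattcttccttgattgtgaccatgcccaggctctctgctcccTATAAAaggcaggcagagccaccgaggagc
CCL20, chr2:227813592-227813841, plus strand: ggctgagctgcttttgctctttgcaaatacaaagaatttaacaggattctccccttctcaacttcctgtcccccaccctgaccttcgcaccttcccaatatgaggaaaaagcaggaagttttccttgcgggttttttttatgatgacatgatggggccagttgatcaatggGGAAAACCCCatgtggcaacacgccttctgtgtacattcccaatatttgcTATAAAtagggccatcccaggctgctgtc

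All 3 windows held a TATA box, which began 30 bases before the start in CCL7 and in CCL8 and 29 bases before it in CCL20. The run cctataaaaggcag, of 14 bases, was common to CCL7 and CCL8 and began 32 bases before the start in both. The CCL20 window held an NF-kB decamer match, GGAAAACCCC, from 79 to 70 bases before the start, and the CCL7 window held the AP-1 letters TGATTCA from 51 to 45 bases before it. Among all 35116 promoter windows of this table, 10.7% held the TATA box letters, 12.3% an NF-kB decamer match and 6.57% the AP-1 letters. These matches describe the letters of the windows and do not show a used site.

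**Figure D1:**
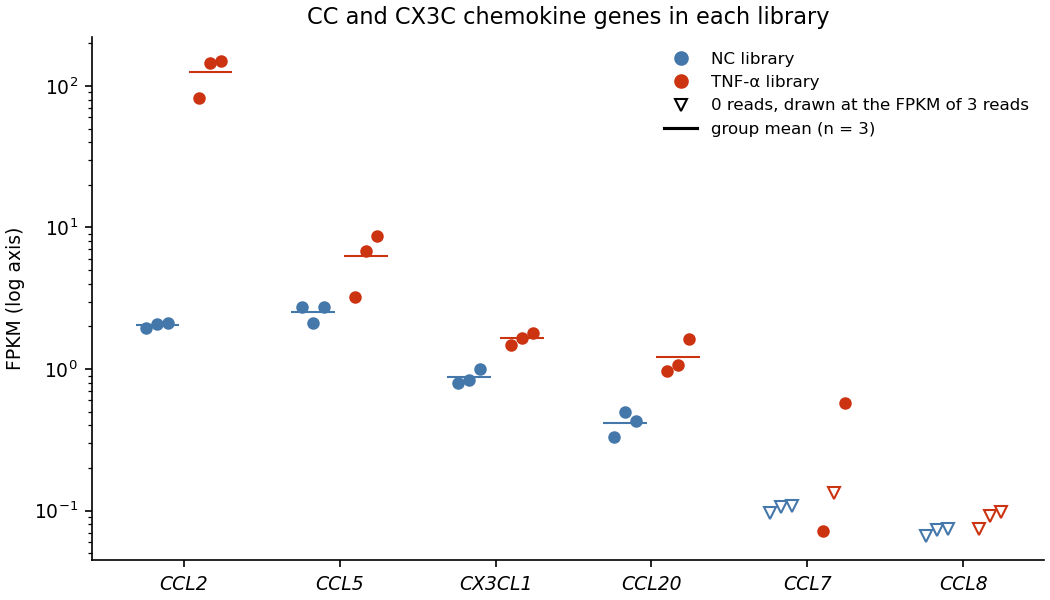
FPKM of the 6 chemokine genes (log axis) in each of the 3 NC and 3 TNF-α libraries. Points are libraries, bars are group means where every library had reads, and open triangles mark 0 reads, drawn at the FPKM that 3 reads would give. CCL2, CCL5, CX3CL1 and CCL20 are higher with TNF-α without overlap between groups, as are 14.8% of all genes tested. CCL2 has by far the widest gap.

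CCL2, also called MCP-1, recruits monocytes through the receptor CCR2. The gene lies on GRCh38 chromosome 17, from 34255218 to 34257203 on the plus strand (ENSG00000108691). NC replicates 1 to 3 gave 1.94, 2.09 and 2.12 FPKM, and TNF-α replicates 1 to 3 gave 81.7, 144.8 and 151.0 FPKM. The reads behind these values were 139, 136 and 135 without TNF-α, and 5216, 7455 and 7281 with it. The NC libraries lay close together, every TNF-α library was far above them, and TNF-α replicate 1 was the lowest of its group.

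On the log2 scale CCL2 rose by 5.33 (SE 0.25, 95% interval 4.72 to 5.94, limma adjusted p = 0.000833), the largest increase among the 12136 genes tested. By level, its place among 19951 protein-coding genes moved from 9189 in the NC group to 433 in the TNF-α group. The single-library ratios to the NC mean were 39.9, 70.7 and 73.8. The change was also past the threshold in TNF-α replicate 1 alone against the NC group, with replicates 2 and 3 left out (log2 fold change 4.76, adjusted p = 7.1e-06), a fit in which the lone library is assumed to vary like the NC libraries. An exact two-sided permutation test of CCL2 gave p = 0.1, which is the smallest p that 3 against 3 libraries allow.

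The gap between TNF-α libraries depended in part on the scaled library size inside the FPKM, which was 0.925 of the reads in genes in replicate 1 and 0.693 and 0.759 in replicates 2 and 3. Counted per 1000000 reads in genes, CCL2 stood at 150, 199 and 228 in these 3 libraries, against 3.67, 3.98 and 3.89 for NC. The order of the libraries was the same on this scale and the groups were as clearly apart.

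CCL5, also called RANTES, attracts T cells and monocytes through receptors that include CCR1 and CCR3. The gene lies on the minus strand of chromosome 17 from 35871491 to 35880793 (ENSG00000271503). CCL5 stood at 2.76, 2.12 and 2.76 FPKM in the 3 NC libraries by replicate number, and TNF-α replicates 1 to 3 gave 3.25, 6.81 and 8.74 FPKM. The reads behind them were 151, 105 and 134, and then 158, 267 and 321. TNF-α replicate 1 was thus just above the NC libraries and the other 2 TNF-α libraries were well above them.

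The CCL5 group means were 2.55 ± 0.372 and 6.27 ± 2.79 FPKM (SD, n = 3 each), and the log2 fold change was 0.96 (SE 0.31, 95% interval 0.20 to 1.71), which did not pass the test (limma adjusted p = 0.195). In TNF-α replicate 1 the exact 95% Poisson interval of the CCL5 level, 2.76 to 3.80 FPKM, overlapped that of NC replicate 1, 2.34 to 3.24 FPKM. With TNF-α replicate 1 left out the log2 fold change of CCL5 was 1.30 (adjusted p = 6.2e-05), in a fit that called 42.6% of all genes tested as higher. With replicates 2 and 3 left out it was 0.27 (adjusted p = 0.340). After correction for GC content and gene length it was 0.51 (adjusted p = 0.164), where 1.32% of all genes were called higher.

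CX3CL1, or fractalkine, is made as a membrane protein whose chemokine domain sits on a mucin-like stalk, and it acts on CX3CR1 either on the cell surface or after it is shed. Its gene occupies chromosome 16 from 57372458 to 57385048 on the plus strand (ENSG00000006210). Control replicates 1 to 3 had 0.791, 0.841 and 0.994 FPKM of CX3CL1, and TNF-α replicates 1 to 3 had 1.49, 1.65 and 1.80 FPKM, from 171, 165 and 191 reads and from 286, 256 and 261 reads. The libraries of each group lay close together, and the groups did not overlap.

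Mean CX3CL1 was 0.875 ± 0.106 FPKM without and 1.64 ± 0.155 FPKM with TNF-α (SD, n = 3 each). The log2 fold change was 0.50 (SE 0.12, 95% interval 0.21 to 0.78) and did not pass the test (limma adjusted p = 0.157). CX3CL1 reached 1 FPKM in the TNF-α libraries only, so that it entered the test through the group in which it was higher. Leaving out TNF-α replicate 1 gave 0.54 (limma adjusted p = 0.00211), in a fit that called 42.6% of all genes tested as higher. Leaving out replicates 2 and 3 gave 0.41. Corrected for GC content and gene length, the value was 0.36 (adjusted p = 0.140).

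CCL20, the ligand of CCR6, attracts dendritic cells and some T and B cells. It lies on the plus strand of chromosome 2 from 227805739 to 227817564 (ENSG00000115009). In NC replicates 1 to 3 CCL20 had 19, 26 and 22 reads, or 0.330, 0.497 and 0.430 FPKM. In TNF-α replicates 1 to 3 it had 50, 44 and 63 reads, or 0.976, 1.06 and 1.63 FPKM. All TNF-α libraries were above all NC libraries, at no more than 63 reads per library.

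The means of CCL20 were 0.419 ± 0.0843 and 1.22 ± 0.353 FPKM (SD, n = 3 each). With 1 FPKM reached in 2 libraries only, CCL20 was not among the genes tested. In the fit with no filter on low values, in which 0.136% of 31662 genes were called higher, its log2 fold change was 0.64 (SE 0.17, limma adjusted p = 0.319) and did not pass. The exact permutation test gave p = 0.1, the smallest possible, for each of CCL5, CX3CL1 and CCL20.

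A total of 4 of the 6 genes, CCL2, CCL5, CX3CL1 and CCL20, were higher in the TNF-α group without overlap. Of all genes tested 14.8% were so, and 8.32% of the genes in the fit with no filter. A position relative to the other genes of the same library was therefore read for each. In each TNF-α library 0.00824% of the genes tested had a log2 ratio to the NC mean at or above that of CCL2, which is CCL2 itself. For CCL5 this share was 9.76%, 14.2% and 3.52% in TNF-α replicates 1 to 3. For CX3CL1 it was 5.32%, 33.8% and 27.1%, and for CCL20 it was 4.19%, 32.2% and 16.2%. CCL2 stood outside the bulk of the genes in every TNF-α library. In replicates 2 and 3 a sizeable part of all genes tested also reached the ratios of CX3CL1 and CCL20. These are ratios of FPKM + 1, which understate the change of low genes such as CX3CL1 and CCL20. On FPKM alone the log2 ratios in replicates 1 to 3 were 0.77, 0.92 and 1.04 for CX3CL1. For CCL20, which was not itself among the genes tested, they were 1.22, 1.35 and 1.96. The share of genes that reach those ratios was not counted.

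**Figure D2:**
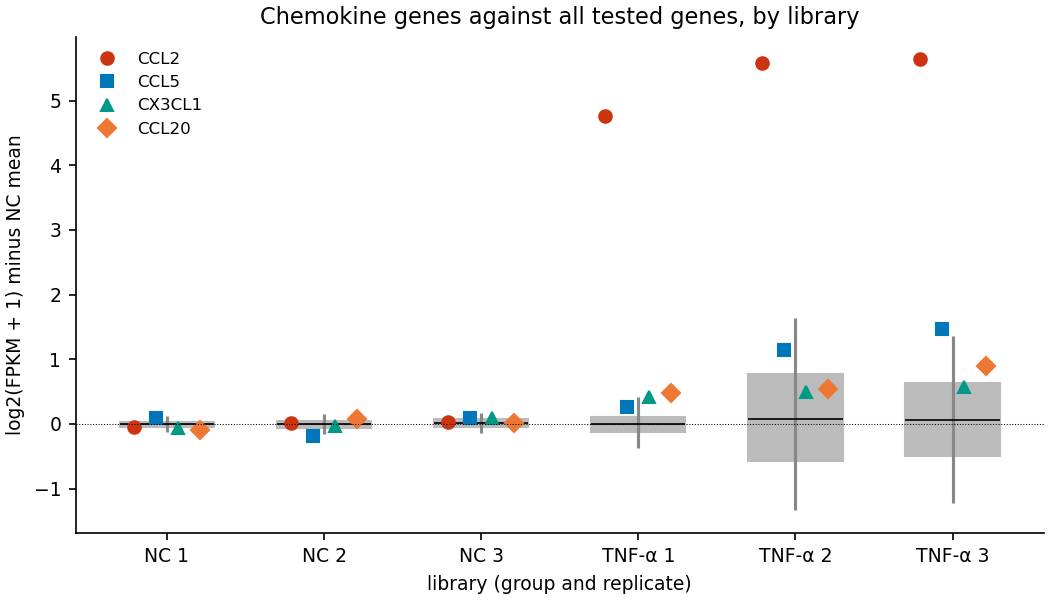
Log2(FPKM + 1) minus the NC mean in each library, for all 12136 tested genes (grey boxes from the 25th to the 75th percentile with the median as a line, whiskers from the 5th to the 95th) and for CCL2, CCL5, CX3CL1 and CCL20 as points. CCL2 lies far above the whiskers in all 3 TNF-α libraries. The other points lie at or inside the whiskers in TNF-α replicate 2, where the boxes are widest. The added 1 shrinks the values of low genes such as CX3CL1 and CCL20.

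CCL7, or MCP-3, acts on monocytes through CCR1, CCR2 and CCR3. It begins 13018 bp downstream of CCL2, on chromosome 17 from 34270221 to 34272242 on the plus strand (ENSG00000108688). CCL7 had 0 reads in each NC library and 2, 0 and 12 reads in TNF-α replicates 1 to 3, or 0.0721, 0 and 0.573 FPKM. A single library carried most of these reads. Over the group the level was at least 5.73-fold higher than the limit that 3 reads over the NC group would give. Without TNF-α replicate 3 the TNF-α group held 2 reads, under that limit, and no fold can be given. The fit with no filter gave an adjusted p of 0.465 and the exact permutation test p = 0.4, and CCL7 is reported as not distinguishable between the groups at this depth.

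CCL8, or MCP-2, is a ligand of CCR2 and other CC receptors, and its gene lies on chromosome 17 from 34319036 to 34321402 on the plus strand (ENSG00000108700). CCL8 had 0 reads in all 6 libraries, and 3 reads, the limit that a count of 0 allows, would correspond to 0.0658 to 0.0980 FPKM. Such limits and the Poisson intervals above cover counting error only and leave out variation between libraries. PCR copies were not marked, so copies count as separate reads.

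The cluster around CCL2 held other chemokine genes of the same orientation at almost no reads. CCL11 began 28465 bp, CCL8 61833 bp and CCL13 99249 bp after the end of CCL2, and all 3 were at 0 reads in every library, as was CCL1 beyond them on the opposite strand. Among the 10 genes within 100 kb of CCL2, CCL2's nearest neighbour CCL7 had the most reads. Near CX3CL1, the CC chemokine gene CCL22 was at 0 reads, and CCL17 had 6 reads over the NC libraries and none with TNF-α. CCL5 overlaps the antisense gene AC015849.1 in span but not in exons, and the exons of none of the 6 genes overlap another gene. Use of strand in counting was not given in the sources used here.

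Gene length bears on any comparison between these genes. The length in the table is that of all annotated exons merged, and for CCL2 a retained-intron transcript makes it 1986 bases, the whole span of the gene, while the principal coding transcript is 741 bases in 3 exons. Reads from CCL2 introns are thus counted with its exons. The merged length is 2.68 times the coding transcript for CCL2, 1.99 times for CCL20, 1.80 times for CX3CL1 and 1.11 times for CCL5. The factor is the same in every library, so no ratio of FPKM within a gene depends on it. Changes of log2(FPKM + 1) and the filter of 1 FPKM do depend on the length. On coding transcript lengths CCL20 was at 1.94, 2.12 and 3.24 FPKM in TNF-α replicates 1 to 3. CX3CL1 was at 1.42, 1.51 and 1.79 FPKM in NC replicates 1 to 3. The test was not run on these lengths.

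With the deposited lengths the order of levels in the NC group was CCL5, CCL2, CX3CL1 and CCL20, and the means of the leading pair, 2.55 and 2.05 FPKM, were close, with a ratio of CCL2 to CCL5 of 0.701, 0.986 and 0.767 in NC replicates 1 to 3. On coding transcript lengths, an alternative added after the data were seen, CCL2 led with 5.49 ± 0.258 FPKM and CCL5 followed with 2.82 ± 0.412 FPKM (SD, n = 3 each), a ratio of 1.70, 2.39 and 1.86. Which of them was the more abundant in control cells therefore depended on the length. CX3CL1 and CCL20 were lower than both on either length.

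In the TNF-α group CCL2 exceeded CCL5 by 25.1, 21.3 and 17.3 times in replicates 1 to 3 with the deposited lengths, and by 60.8, 51.4 and 41.8 times on coding lengths. CCL5 was next in each library, and CX3CL1 and CCL20 followed, with ranges of 1.49 to 1.80 and 0.976 to 1.63 FPKM that overlapped. These ratios within a library do not depend on the library size.

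As a share of the summed FPKM of the 6 genes, CCL2 made up 33.3%, 37.7% and 33.6% without and 93.4%, 93.8% and 92.2% with TNF-α, by replicate number. The sum itself ran from 5.54 to 6.30 FPKM over the NC libraries and reached 87.5, 154 and 164 FPKM in the TNF-α libraries. CCL5, which held the largest share in all 3 NC libraries at 47.5%, 38.2% and 43.8%, was at 3.72%, 4.41% and 5.34% in the TNF-α libraries.

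**Figure D3:**
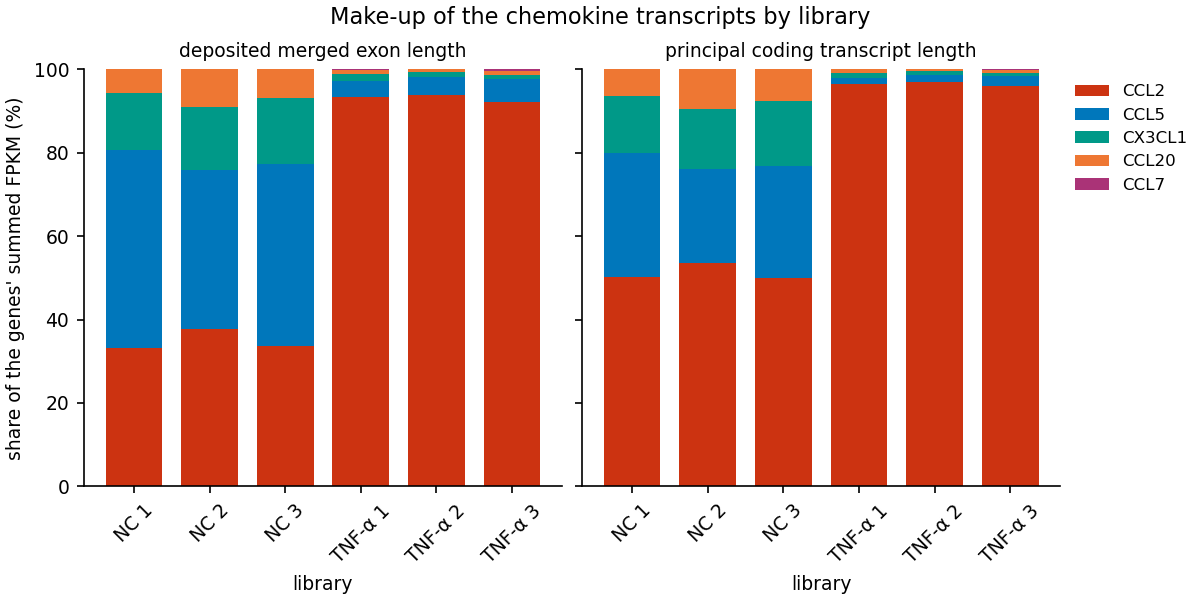
Share of each chemokine gene in their summed FPKM, in percent, for each library, with the deposited merged exon length (left) and with the principal coding transcript length (right). CCL8 has no reads and no segment. CCL2 fills 92.2% to 93.8% of the bar in the TNF-α libraries on the left and 96.0% to 96.8% on the right.

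By the smallest root mean square difference between the log2 profiles over the 6 libraries, each relative to its NC mean, the genes closest to CCL2 were the neutrophil attractant CXCL8 (0.964), the T cell attractant CXCL10 (1.02) and the leukocyte adhesion molecule ICAM1 (1.19). CCL2 had the largest increase of all genes tested, so each of these rose by less. Their log2 fold changes were 4.12, 3.94 and 3.76 (limma adjusted p = 0.000996, 0.000833 and 0.000833). By library, CCL2 had log2 ratios of 4.76, 5.58 and 5.64 in TNF-α replicates 1 to 3. CXCL8 had 4.39, 3.78 and 4.17, CXCL10 had 3.79, 3.76 and 4.27, and ICAM1 had 4.02, 3.50 and 3.77. CCL2 was thus lowest in replicate 1, where CXCL8 and ICAM1 were highest. Closest to CCL5 were AC005261.3 (0.110), PPP1R15A (0.122) and IFITM1 (0.128), which like CCL5 had a smaller log2 ratio in TNF-α replicate 1, from 0.06 to 0.47, than in replicates 2 and 3, from 1.20 to 1.38. Closest to CX3CL1 were LMO4 (0.0359), PRICKLE3 (0.0413) and TAP2 (0.0470). None of these 6 genes passed the threshold, with adjusted p from 0.152 to 0.195.

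Of the other chemokine genes of the CC and XC families with CXCL17, 24 were listed, 23 were found and 16 were at 0 reads in all libraries. The gene that was tested was CCL26, an eosinophil attractant, with 2.74, 2.03 and 2.47 FPKM in control replicates and 1.10, 6.23 and 4.14 FPKM in treated ones. Its groups overlapped and it did not pass (log2 fold change 0.33, limma adjusted p = 0.567). Without TNF-α replicate 1 CCL26 had 0.84 and passed as higher, in a fit that called 42.6% of all genes tested as higher. Without TNF-α replicates 2 and 3 it had -0.69, so that its direction depended on the libraries kept.

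The receptors of these ligands were hardly read. None of the 18 signalling chemokine receptors listed had enough reads to be tested, and 8 of them, CCR2, CCR3, CCR8, CCR9, CXCR1, CXCR2, CXCR4 and CXCR5, were at 0 reads in all 6 libraries. CCR2, the receptor of CCL2, is among these. CX3CR1 had 0, 2 and 0 reads without TNF-α and 0, 0 and 4 with it. CCR6, the receptor of CCL20, had 2 reads in TNF-α replicate 1 and none elsewhere. The level summed over the list was 0.561 to 0.975 FPKM for NC and 1.15 to 2.42 FPKM for TNF-α. CCR10, a receptor of skin- and mucosa-associated chemokines, named after its values were seen, held much of it with 20, 30 and 48 reads in control replicates and 63, 143 and 56 in treated ones.

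Of 7 atypical receptors, which bind chemokines and scavenge or present them without G protein signalling, ACKR1 was at 0 reads and PITPNM3 was tested. PITPNM3, a phosphatidylinositol transfer protein family member that has been described as a receptor of CCL18, fell from 3.33 ± 0.148 to 1.34 ± 0.225 FPKM (SD, n = 3 each), by 0.89 on the log2 scale (limma adjusted p = 0.0383). It passed in 10 of 18 alternatives and kept its direction in all 18.

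Of 17 proteases and enzymes that process chemokines, 8 were tested, with a median log2 fold change of 0.13 against 0.04 over all genes tested. Of all genes tested 1.01% passed, and of these 8 genes 1 did. This was CTSS, cathepsin S, a cysteine protease that can release CX3CL1 from the membrane. CTSS was at 0.471, 0.361 and 0.442 FPKM without TNF-α and at 5.95, 5.12 and 6.26 FPKM with it, with all 3 TNF-α libraries alike. Like CX3CL1, CTSS reached 1 FPKM in the TNF-α libraries only, so that it entered the test through the group in which it was higher. In the fit with no filter, where 0.136% of 31662 genes were called higher, CTSS had a limma adjusted p of 0.00866. It rose by 2.25 on the log2 scale (SE 0.12, limma adjusted p = 0.00134) and passed in all 19 alternatives. The main sheddases of CX3CL1, ADAM10 and ADAM17, had log2 fold changes of -0.70 and -0.91 that did not pass (adjusted p = 0.195 and 0.198). ADAM17 had 6.31 FPKM in TNF-α replicate 1, above all NC libraries, and 1.26 and 1.45 FPKM in replicates 2 and 3. Of the list 4 genes were called higher and 4 lower without TNF-α replicate 1. That fit called 5169 (42.6%) of all 12136 genes tested higher and 4461 lower. Without TNF-α replicates 2 and 3 the median of the list was 0.10. The median of this protease list turned to -0.13 with quantile normalization and to -0.35 with TPM, a scaling that moved the centre of all genes tested to -0.42.

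Heparan sulfate chains hold chemokines on the cell surface. Of 18 carriers and enzymes of these chains 13 were tested, with a median of -0.30. Of these SDC4 passed, the gene of the transmembrane carrier syndecan-4, beside 1.01% of all genes tested. SDC4 rose from 45.5 ± 0.797 to 152 ± 40.0 FPKM (SD, n = 3 each), by 1.68 on the log2 scale (limma adjusted p = 0.0362), and passed in 12 of 19 alternatives. Of the list 4 genes were called higher and 7 lower without TNF-α replicate 1, where 5169 of all 12136 genes were called higher and 4461 lower. The median was -0.07 without TNF-α replicates 2 and 3.

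Of 11 NF-kB subunits and inhibitors 10 were tested. Of these 5 passed as higher and none as lower, where 0.717% of all genes tested passed as higher. The median log2 fold change of the list was 2.09, or 2.05 above the median of all genes. With TPM the difference from the median of all genes was 2.09. The inhibitor NFKBIA, itself an NF-kB target, was at 13.0, 13.3 and 14.4 FPKM in control replicates and at 75.3, 117.7 and 112.2 FPKM in treated ones. It rose by 2.79 (limma adjusted p = 0.00415). The subunits RELB and NFKB2 of the alternative pathway rose by 3.48 and 2.63 (adjusted p = 0.0185 and 0.0173), and the inhibitors NFKBIE and TNFAIP3 by 2.73 and 2.70 (adjusted p = 0.0202 and 0.0421). The genes of the classical subunits, NFKB1 and RELA, had 0.74 and 0.70 and did not pass (adjusted p = 0.121 and 0.194). NFKBIA passed in 16 of 19 alternatives, RELB, NFKB2 and NFKBIE in 12 each and TNFAIP3 in 9, and none of the 5 changed direction. The count of 5 depended on the libraries kept. With limma it was 0 without any 1 of the NC libraries (9 of the 10 at an unadjusted p under 0.05 in each case), and it was 9, 2 and 1 when TNF-α replicates 1, 2 and 3 were left out in turn. Over all 12136 genes tested, 16, 10 and 13 were called higher without NC replicates 1 to 3, each left out in turn. Without TNF-α replicates 1 to 3 in turn, these numbers were 5169, 35 and 18. The count of called NF-kB genes was 1 with the replicate block and 1 with no filter, fits that called 23 and 43 genes higher. Without TNF-α replicates 2 and 3 the log2 fold change of TNFAIP3 was 3.57.

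Unlike the other called genes of this list, TNFAIP3 was highest in TNF-α replicate 1, with 57.6 FPKM, against 18.9 and 26.8 FPKM in replicates 2 and 3. CCL2, CCL5, NFKBIA, RELB, NFKB2 and NFKBIE were all lowest in replicate 1 among the TNF-α libraries. Whether this order among the libraries moved with any property of the libraries was not tested.

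Among 20 other transcription regulators of chemokine genes 17 were tested, with a median of 0.54. Of the 17 genes 3 passed as higher, beside 0.717% of all genes tested. The AP-1 subunits JUNB and FOSL1 rose by 2.31 and 1.08 (limma adjusted p = 0.0201 and 0.0498) and the interferon regulatory factor IRF1 by 1.53 (adjusted p = 0.0430). JUNB and IRF1 passed in 12 of 19 alternatives and FOSL1 in 6. With limma the count of 3 was 0 when any 1 library other than TNF-α replicate 1 was left out (5 or 6 genes at an unadjusted p under 0.05). It was 9 higher and 2 lower without TNF-α replicate 1, a fit that called 5169 of all 12136 genes higher and 4461 lower. The median of the list was 0.38 without TNF-α replicates 2 and 3.

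Chemokine transcripts are short-lived, and 9 genes that destabilise or stabilise such transcripts were all tested. Their median was -0.0039, and 1 of the 9 passed, beside 1.01% of all genes tested. ZC3H12A, an RNase that degrades cytokine transcripts and was first described as a gene induced by CCL2, rose from 3.72 ± 0.423 to 10.9 ± 0.855 FPKM (SD, n = 3 each), by 1.34 on the log2 scale (limma adjusted p = 0.0116), and passed in 11 of 19 alternatives. Without TNF-α replicate 1, 2 of the 9 genes were called higher and 4 lower, against 5169 and 4461 of all 12136 genes. Their median was 0.09 without TNF-α replicates 2 and 3. ZFP36, which binds AU-rich elements of the same kind of transcript, had 0.20 (adjusted p = 0.372).

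**Figure D4:**
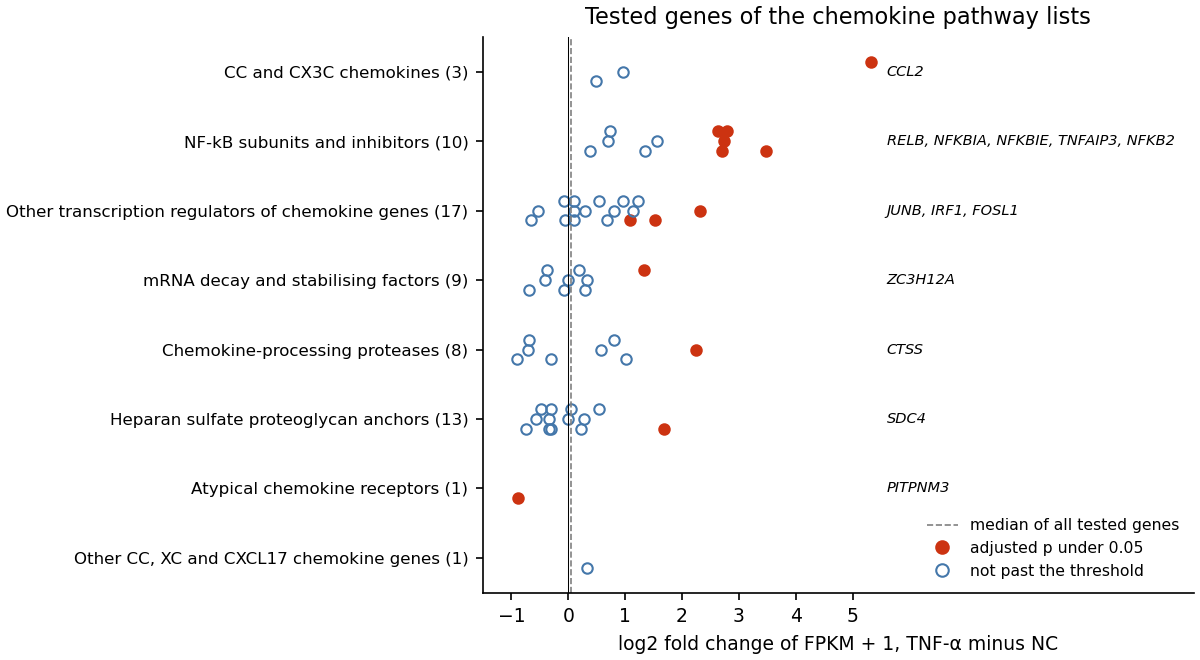
Log2 fold change of FPKM + 1, TNF-α minus NC, for every tested gene of the chemokine pathway lists, with the number tested in brackets. Filled points passed the threshold and are named on the right, open points did not, and the dashed line is the median of all genes tested. CCL2 lies beyond every other gene, and 5 of 10 NF-kB genes passed, against 1.01% of all genes tested.

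Markers of other cells that make chemokines were read beside these results. Of 14 leukocyte and microglia markers none reached the level for testing, and 6, among them PTPRC, TYROBP, CD3E, FCGR3A and S100A8, were at 0 reads in all libraries. Their levels summed to 0.869 to 1.23 FPKM per NC library and to 0.654 to 1.75 FPKM per TNF-α library. Of 6 endothelial markers KDR was tested, with -0.91 (limma adjusted p = 0.195). Without TNF-α replicate 1 it had -1.30 and was called lower, in a fit that called 4461 of all 12136 genes lower. With replicates 2 and 3 left out it had -0.12. The endothelial list summed to 6.33 to 6.84 FPKM per NC library and to 2.22 to 6.04 FPKM per TNF-α library. Of 10 markers of glioma and astrocytic lines 7 were tested, with a median log2 fold change of -0.46, and 3 of the 7 were above 0. SOX2, SOX9 and FABP7 had -0.84, -0.51 and -0.46, and NES and CD44 had 0.36 and 0.03, none past the threshold. The intermediate filament gene VIM was at 343 and 753 FPKM in the NC and TNF-α groups and did not pass (log2 fold change 1.05, limma adjusted p = 0.195). The water channel gene AQP4 was at 0 reads. GFAP fell from 8.24 ± 1.19 to 2.19 ± 0.537 FPKM (SD, n = 3 each), by 1.54 on the log2 scale (adjusted p = 0.0210), passing in 12 of 19 alternatives. The part of the lower GFAP and endothelial marker levels in the chemokine results was not tested. All libraries are of the U251 line, and in its bulk RNA fewer cells that express a gene and less RNA per cell cannot be told apart.

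**Figure D5:**
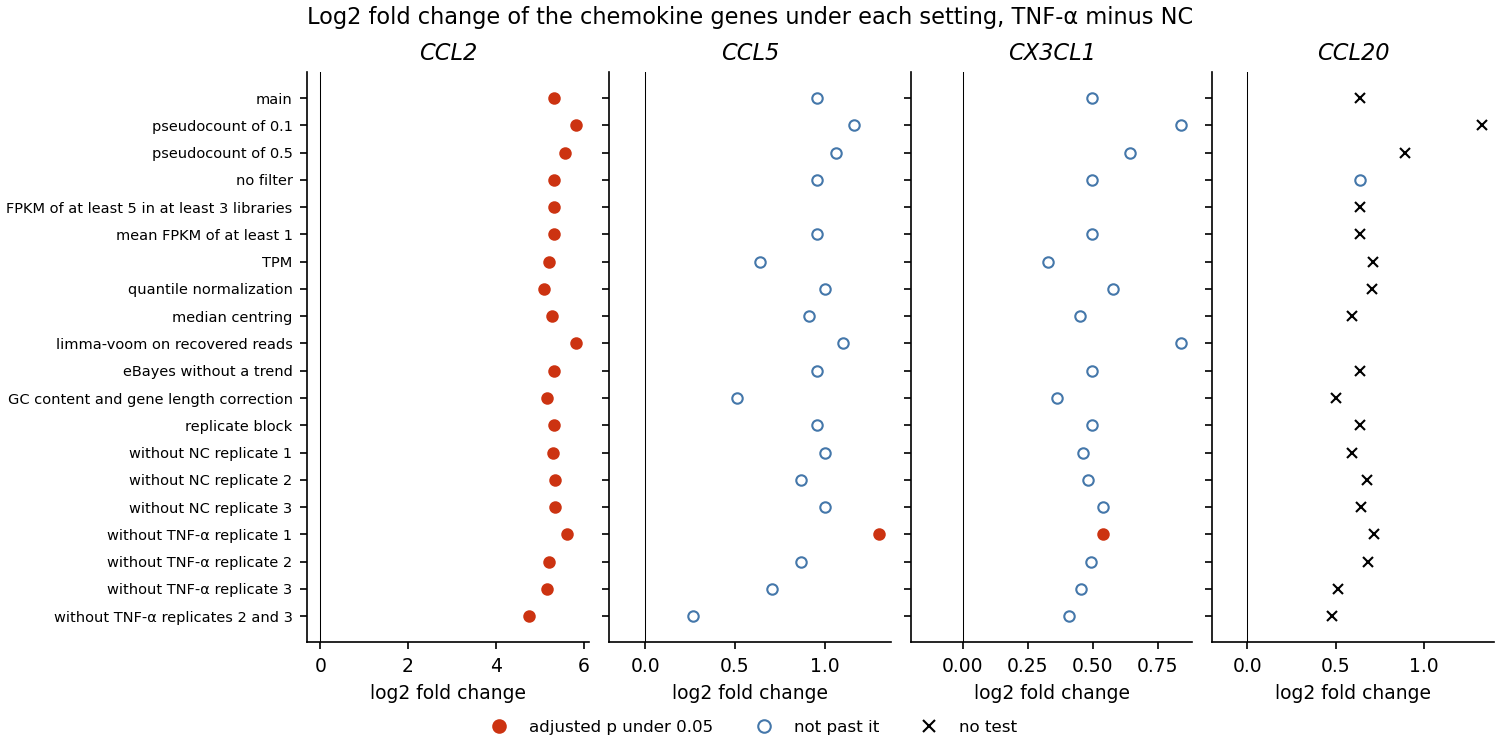
Log2 fold change of CCL2, CCL5, CX3CL1 and CCL20, TNF-α minus NC, as reported (main) and under each alternative setting, with filled points past an adjusted p of 0.05, open points not past it and crosses where no test was made. CCL2 stays between 4.76 and 5.82 and past the threshold throughout. CCL5 and CX3CL1 pass when TNF-α replicate 1 is left out, in a fit that called 42.6% of all genes tested as higher.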

How the data were processed

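The authors deposited 1 table of FPKM with a column per library and the gene lengths. The submitters' processing notes name HISAT2 2.0.5, StringTie 1.3.3b and featureCounts 1.5.0, among other tools, without roles, and the genome build and use of strand were not given in the sources used here. All 58735 genes matched GENCODE release 29 (GRCh38) in identifier, name, start and end. The table has 6 more value columns, named for samples outside those described here, which were not used.

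Within a library, FPKM multiplied by gene length came in whole steps for 100% of values (tolerance 0.01 read), and the number of steps is given as reads. Groups came from the sample labels. TNF-α was compared with NC on log2(FPKM + 1) with limma 3.58.1 in R 4.3.3 (eBayes with a trend, two-sided). The fit was tried on simulated data in which all libraries varied alike. That trial cannot show how the fit behaves where libraries stand apart, as TNF-α replicates 2 and 3 did. CCL2, CCL5, CCL7, CCL20 and CX3CL1 also had an exact two-sided permutation test. Tables were made with Python 3.11.15 and pandas 2.3.3. The genes of interest and the pathway lists were chosen with earlier results of these data known. Named genes were all 6 chemokine genes, up to 5 called genes of each list with the largest change, receptors at 0 reads, and the 3 tested genes nearest to each tested chemokine gene, with other genes named for their role after their values were seen. Alternatives were other pseudocounts, filters, scalings and variance models, voom on the recovered reads, a GC content and length correction (splines with 5 degrees of freedom each), a replicate block and leaving out libraries.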

Additional observations from a re-analysis of the deposited data

How the results depend on the processing

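CCL2 kept its direction and its call in all 19 alternatives, from 4.76 to 5.82 (largest limma adjusted p 0.0196), and CCL5 (0.27 to 1.30) and CX3CL1 (0.33 to 0.84) kept their direction in the 18 that gave a value. Both passed when TNF-α replicate 1 was left out, in a fit that called 42.6% of all genes tested as higher, and not otherwise. Leaving out 1 library each gave 0.71 to 1.30 for CCL5, 0.46 to 0.54 for CX3CL1 and a bound of 3.68 to 8.36 for CCL7, which had no value without TNF-α replicate 3. CCL20 had 1.33 with a pseudocount of 0.1 and 0.89 with 0.5. The log2 ratio of CCL2 to CCL5 in the NC libraries turned from -0.31 to 0.97 on coding transcript lengths. A filter of 5 FPKM removed CCL5 and CX3CL1, and voom gave no value for CCL20.

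The 123 genes past the threshold became 58 with no filter, 79 with the filter of 5 FPKM, 58 with TPM, 261 with the GC content and length correction, and 732 without TNF-α replicates 2 and 3, an alternative chosen after seeing the data. With 1 library left out the number ran from 10 to 9630. It was 17, 10 and 13 without NC replicates 1 to 3 and 9630, 42 and 20 without TNF-α replicates 1 to 3, and the cause was not tested. With TPM the median over all genes was -0.42, and CCL5 was 1.06 and CX3CL1 0.74 above that median.

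With the replicate number as a block 24 genes passed, CCL2 among them (adjusted p = 0.0164), and CCL5 and CX3CL1 were at 0.213. Same-numbered libraries correlated by -0.0144, -0.178 and 0.124 in their deviations from the group means. These values cannot decide whether the numbers pair the libraries. The TNF-α libraries differed widely from each other, which could hide a smaller effect shared by same-numbered libraries.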
